A study of Homo sapiens with 7 samples.

Results

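The 8 genes described here, MDM2, BAX, BBC3, GADD45A, BTG2, TP53I3, FAS and PLK3, are transcriptional targets of the tumour suppressor p53. They were located in a table of H3K4me3 regions as the regions that overlap 3 kb either side of each gene's hg19 start, given to the nearest kb, and this rule used no measured value. Each gene had exactly 1 such region, and it covered the start, so 8 of the 30840 listed regions are described. The regions come from chromatin immunoprecipitation and sequencing (ChIP-seq) of H3K4me3, trimethylated lysine 4 of histone H3, in the human colon cancer line HCT116. All cells compared were KDM5A-/- and received an empty vector (the control), the wild-type KDM5A or a mutant form of it, then were fixed 24 h after transfection. Every group, the control included, thus lacks the cell's own KDM5A, and the forms put back came from a transient transfection. Each group had 1 H3K4me3 library, so no difference below has a replicate check, no p-value is given, and the intervals hold counting error alone. The changed residues of the mutant are not given in the labels.

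p53 is a transcription factor that is stabilised by DNA damage and other stress, binds a response element made of paired decamers and switches on genes of growth arrest, repair and apoptosis. HCT116 cells are known to carry wild-type p53 and are a common model of this response. H3K4me3 marks the starts of active and poised genes, and KDM5A is a demethylase that removes it. The study's title concerns methylation of KDM5A by SMYD2 and its demethylase activity, and the comparisons ask whether either form of KDM5A left a different amount of the mark.

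Promoter sequences bear on these regions because the mark lies over the starts. RefSeq promoters (GRCh38.p14, another build than the regions, so that they were not laid over them) were matched for 7 of the 8 genes, with 12 starts in all. GADD45A had no entry. In the 250 bases before each start, the p53 consensus was searched as 2 decamers with no spacer and at most 2 mismatches over 20 bases, with the core C and G of each decamer kept. A match was present at MDM2 and FAS and in 0.242% of the 35116 RefSeq windows of this length. Both matches lie at the gene's most downstream listed starts, 0.852 kb past the first start of MDM2 and 0.633 kb past that of FAS. Both genes are known for p53 response elements inside the first intron. The windows are shown for these genes with the match in capitals, at chr12:68808774-68809023 and chr10:88991181-88991430, both on the + strand.
MDM2: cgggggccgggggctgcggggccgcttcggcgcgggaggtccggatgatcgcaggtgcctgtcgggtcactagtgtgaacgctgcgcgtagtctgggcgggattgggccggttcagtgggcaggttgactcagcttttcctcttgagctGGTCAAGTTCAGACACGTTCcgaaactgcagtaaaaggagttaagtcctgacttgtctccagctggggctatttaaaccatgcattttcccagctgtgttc
FAS: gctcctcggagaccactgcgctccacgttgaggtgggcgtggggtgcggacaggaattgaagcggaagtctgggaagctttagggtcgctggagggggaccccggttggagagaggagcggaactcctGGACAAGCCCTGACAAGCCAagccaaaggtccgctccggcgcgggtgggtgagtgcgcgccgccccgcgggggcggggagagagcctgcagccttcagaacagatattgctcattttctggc
The MDM2 match begins 101 bases and the FAS match 122 bases before the start, and each has 2 mismatches.

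The sequence CCGCCC, which the ARID domain of KDM5A is known to bind, was searched on both strands. Its reverse complement is the core of the GC box bound by SP1, so a match serves for either. It was present in 42.6% of all windows and at 5 of the 7 genes with a promoter in the table, in at least 1 of their windows, and absent at BBC3 and TP53I3. BTG2 had 3 matches, the highest number among the 12 windows. Its window (chr1:203305269-203305518, + strand) is shown with the matches in capitals, beside that of TP53I3 (chr2:24084835-24085084, − strand), which had none.
BTG2: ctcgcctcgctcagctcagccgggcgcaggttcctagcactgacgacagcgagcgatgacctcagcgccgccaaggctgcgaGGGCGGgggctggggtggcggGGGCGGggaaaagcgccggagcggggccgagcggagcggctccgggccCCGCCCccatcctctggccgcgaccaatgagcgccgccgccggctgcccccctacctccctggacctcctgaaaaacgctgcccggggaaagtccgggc
TP53I3: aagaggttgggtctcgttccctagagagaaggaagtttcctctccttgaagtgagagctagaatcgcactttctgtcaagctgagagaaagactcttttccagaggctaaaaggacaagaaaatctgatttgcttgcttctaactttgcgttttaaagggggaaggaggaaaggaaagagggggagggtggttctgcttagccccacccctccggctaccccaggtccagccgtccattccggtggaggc
The BTG2 window has 30 CpG dinucleotides and 74.8% G and C, the TP53I3 window 6 and 51.2%, and the median over all windows is 11 and 58.0%. BBC3 had 4 CpG dinucleotides, BAX 25, PLK3 19, and the first listed starts of MDM2 and FAS 33 and 14. TATAAA, present in 10.7% of all windows, was found in none of the 12, and CCAAT or its reverse complement, present in 32.01% of windows, was found at MDM2, BAX, BBC3 and BTG2. CpG-poor and CpG-rich promoters were therefore both among the targets, and the starts of both kinds lay in listed regions. A match is a description of the letters and does not show binding.

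The marked regions were wide and strong. Their values are in RPM, the authors' reads per 1000000 reads of the library. Mean RPM ran from 36.4 at TP53I3 to 113.6 at BBC3 (median 53.4), above 74.7% to 99.6% of all regions. Widths ran from 2128 bp at TP53I3 to 7195 bp at BBC3, against a median of 1268 bp over all regions and 2675 bp over the 10887 strong regions, those with a mean of 20 RPM or more. Per kb, the mean signal ran from 15.5 to 25.1 RPM (median 17.3), near the median of 17.4 RPM per kb of the strong regions. FAS had the densest mark with the empty vector, 29.3 RPM per kb, followed by GADD45A with 22.1, BTG2 with 20.4, BAX with 18.6, TP53I3 with 18.2, MDM2 with 17.8, BBC3 with 16.9 and PLK3 with 16.7. BBC3, highest in RPM, was thus next to lowest per kb. With mutant KDM5A the order had FAS at 21.4, BTG2 at 19.1 and GADD45A at 18.9 RPM per kb on top.

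Measured from the rounded starts, 7 of the 8 regions reached further into the gene than before it. Rounding moves the 2 distances in opposite ways, so the longer side is not resolved at BTG2, BAX, MDM2 and TP53I3. MDM2 was marked from 1.02 kb before to 1.97 kb after its start. BBC3 reached 5.64 kb into the gene and 1.56 kb before it. The FAS region ran from 0.159 kb before to 2.02 kb after the start, the first distance being smaller than the rounding. TP53I3 went the other way from its rounded start, with 1.36 kb before and 0.770 kb after it, a difference that rounding could reverse.

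**Figure D1:**
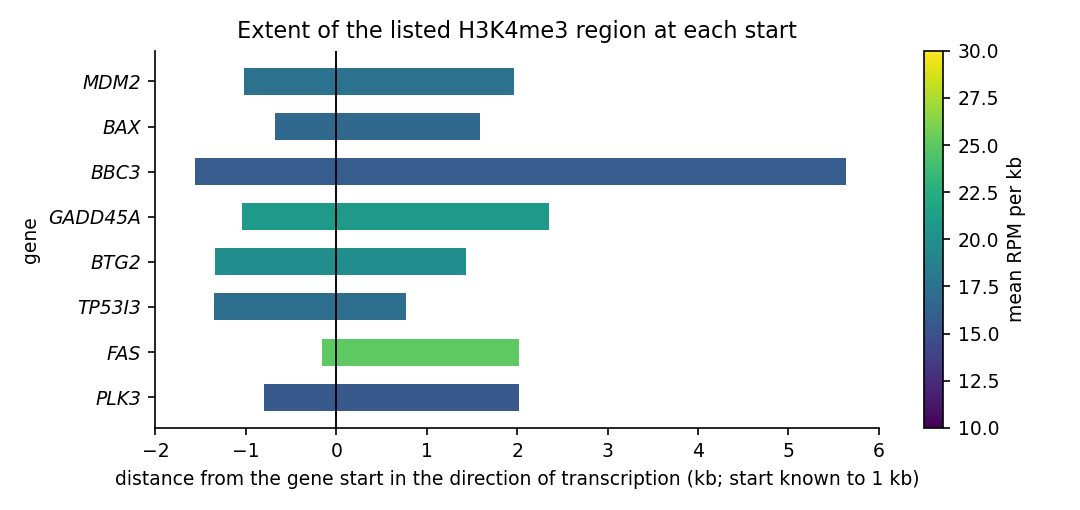
Extent of the listed H3K4me3 region at each of the 8 genes, as distance in kb from the start (rounded to 1 kb) in the direction of transcription, with colour for the mean RPM per kb over the 3 libraries. BBC3 has the widest region (7195 bp) and FAS the densest.

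Under the authors' scaling, all 8 regions had their highest RPM with the empty vector, an intermediate value with wild-type KDM5A and the lowest with mutant KDM5A. That order was held by 40.1% of all regions and by 71.4% of the strong regions. It depends on the scaling: when the median ratio of those regions whose mean RPM reached the median of the table was set to 1 (median-centred scaling), 7 of the 8 were above the control with wild-type KDM5A and 4 of the 8 with mutant KDM5A, and 2 of the 8 were higher with mutant than with wild-type KDM5A. Under that scaling 5152, 5179 and 5452 of the 10887 strong regions were higher in the same 3 comparisons. For all 30840 regions the counts were 16839, 17242 and 15982. None of the 8 was 1.5-fold lower or higher in any comparison on the log2 scale with a pseudocount of 0.7 RPM. Of the 10887 strong regions, 5 were lower and 5 higher by this measure with wild-type KDM5A than with the empty vector. For mutant KDM5A against the empty vector these counts were 47 and 5, and for mutant against wild-type KDM5A 0 and 0. The 0 of 8 is thus usual for strong regions and is no trait of the targets. With wild-type KDM5A, 6.53% of all regions were past 1.5-fold on the lower side of the control and 6.23% on the higher side. For mutant KDM5A against the control these shares were 8.15% and 6.61%, and for mutant against wild-type KDM5A 5.45% and 5.19%. Median-centred scaling moved the share of lower among such regions from 51.2% to 36.7%, from 55.2% to 31.2% and from 51.2% to 40.2% in the same order. The differences at the targets were thus small shifts of strong promoters, read from 325 to 1300 reads per region and library.

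**Figure D2:**
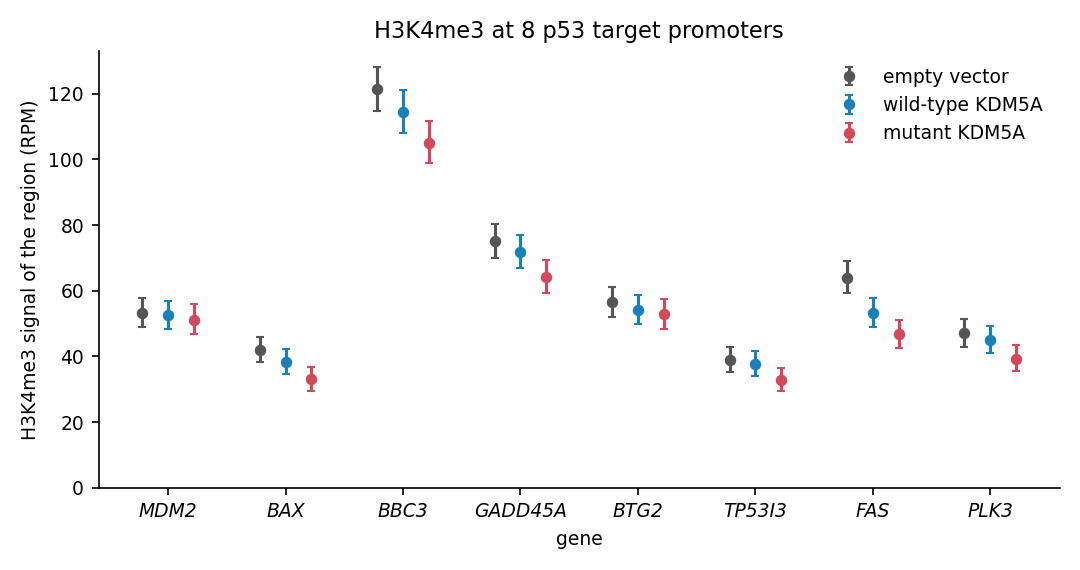
H3K4me3 signal in RPM of the region at each gene, 1 point per library (empty vector, wild-type KDM5A, mutant KDM5A), with exact Poisson 95% intervals for counting error. In the authors' scaling every gene steps down from empty vector to wild-type to mutant KDM5A, widest at FAS and least at MDM2, while under median-centred scaling this order is lost at 7 of the 8 genes with wild-type KDM5A.

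MDM2 encodes the ubiquitin ligase that degrades p53, and p53 in turn induces it, so that it closes the feedback loop. Its region, at chromosome 12, 69200980 to 69203968, had 53.1 RPM in the control, 52.5 after wild-type KDM5A and 51.2 after the mutant. The 3 values lie within each other's counting intervals. The ratio to the empty vector was 0.989 with wild-type KDM5A (95% interval 0.879 to 1.11) and 0.964 with mutant KDM5A (0.853 to 1.09). MDM2 thus had the highest ratios of the 8 genes to the empty vector, and they lay above those of 88.9% and 94.8% of the strong regions. Relative to the median strong region it was higher by 0.13 and 0.19 on the log2 scale.

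FAS, the death receptor of the extrinsic apoptosis pathway, lay at the other end. Its region, at chromosome 10, 90749842 to 90752022, had 63.9 RPM in the control, 53.4 after wild-type KDM5A and 46.7 after the mutant. The value of the empty vector library stood clear of the other two. The ratio to the empty vector was 0.834 with wild-type KDM5A (0.746 to 0.933) and 0.731 with mutant KDM5A (0.648 to 0.824), changes of −16.6% and −26.9%. Among strong regions, 14.9% had a lower ratio with wild-type and 4.46% with mutant KDM5A. FAS stayed below the median strong region by −0.11 and −0.20 on the log2 scale, and below 0 under median-centred scaling (−0.12 and −0.21). The gene overlaps ACTA2 in the GRCh38.p14 gene table, so the mark there cannot be assigned to FAS alone.

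The pro-apoptotic genes of the mitochondrial pathway lay between them. BAX, which forms pores in the outer mitochondrial membrane, had 42.0, 38.3 and 33.1 RPM with empty vector, wild-type and mutant KDM5A (chromosome 19, 49457322 to 49459584). Its ratio of mutant to empty vector was 0.788 (0.682 to 0.911), next lowest after FAS, and that of wild-type to empty vector 0.913 (0.797 to 1.05). BBC3 encodes PUMA, a BH3-only protein that frees BAX from its inhibitors, and had 121.3, 114.4 and 105.1 RPM (chromosome 19, 47729364 to 47736558). With the most reads of the 8 genes, it had the narrowest interval: 0.866 for mutant over empty vector (0.797 to 0.940) and 0.943 for wild-type (0.872 to 1.02). Both genes were lowest with the mutant form in the authors' scaling. Median-centred scaling put BBC3 above 0 in both comparisons with the empty vector, at 0.060 with wild-type and 0.032 with mutant KDM5A on the log2 scale.

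TP53I3, a quinone oxidoreductase linked to oxidative stress in p53-driven apoptosis, had the weakest region, with 38.8, 37.7 and 32.8 RPM (chromosome 2, 24306231 to 24308358). The ratio of wild-type to empty vector was 0.971 (0.845 to 1.12) and that of mutant to wild-type 0.870 (0.750 to 1.01). Both intervals hold 1 and they overlap, so the place of the step is not resolved. Mutant to empty vector was 0.845 (0.728 to 0.979). Under median-centred scaling the log2 ratios to the empty vector were 0.10 with wild-type and −0.0038 with mutant KDM5A. FAM228B overlaps this gene in the gene table.

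The growth arrest and stress genes had intervals that overlap in every comparison. GADD45A, a stress-induced protein of growth arrest and DNA repair, had 75.05, 71.8 and 64.2 RPM (chromosome 1, 68149958 to 68153350). PLK3, a stress-responsive kinase, had 47.0, 45.1 and 39.3 RPM (chromosome 1, 45265198 to 45268015). In both, the ratio of wild-type to empty vector had an interval that holds 1, at 0.956 (0.866 to 1.06) and 0.958 (0.844 to 1.09). The mutant was lower in the authors' scaling, with 0.855 (0.770 to 0.950) and 0.835 (0.729 to 0.955), while under median-centred scaling GADD45A was at 0.014 and PLK3 at −0.021 on the log2 scale. BTG2, an antiproliferative protein that promotes mRNA deadenylation, had 56.6, 54.1 and 52.8 RPM (chromosome 1, 203273663 to 203276429). Its ratio of mutant to empty vector was 0.933 (0.829 to 1.05), an interval that holds 1, and was above 1 under median-centred scaling.

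With wild-type KDM5A the sum over these genes was slightly lower in the authors' scaling and slightly higher under median-centred scaling. The 8 regions summed to 497.9 RPM in the control and to 467.3 RPM after wild-type KDM5A, a ratio of 0.938 (0.903 to 0.975), or −6.15%. FAS carried a good part of it, and the ratio without FAS was 0.954 (0.915 to 0.994). The median change was −4.32%, against −7.24% over all regions and −9.81% over strong regions. The interval lay below 1 at 1 of the 8 genes, FAS, against 20.1% of all regions and 40.9% of the strong regions. On the log2 scale the median of the 8 was −0.064 and that of the strong regions −0.15. Median-centred scaling, which moved the median of all regions up by 0.13, took the summed log2 ratio of the targets from −0.091 to 0.053.

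With mutant KDM5A the mark was lower at most of them in the authors' scaling, and at 4 of the 8 under median-centred scaling. That 4 of 8 is near the 52.4% of strong regions below 0 under the same scaling. The sum was 425.2 RPM, a ratio to the empty vector of 0.854 (0.820 to 0.889), or −14.6%, and 0.872 (0.835 to 0.911) without FAS. The median change was −14.8%, against −12.0% over all regions and −15.5% over strong regions. At 6 of the 8 genes the interval lay below 1, all but MDM2 and BTG2. Over all regions 31.7% had such an interval and over strong regions 69%, so the targets' count is near that of strong regions. Median-centred scaling, which moved the median of all regions by 0.22, left the targets at a summed log2 ratio of 0.012 in place of −0.23.

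Between the forms of KDM5A, the sum was lower with the mutant, with a ratio to wild-type of 0.910 (0.873 to 0.948), or −9.01%, and 0.914 (0.875 to 0.955) without FAS. The median change was −11.4%, against −5.21% over all regions and −6.23% over strong regions. The interval lay below 1 at 4 of the 8 genes, BBC3, GADD45A, FAS and PLK3, against 10.8% of all regions and 20.7% of the strong regions. Their upper ends came close to 1, at 0.998, 0.994, 0.992 and 0.998 in that order. Median-centred scaling raised the plain ratios of mutant to wild-type by 0.095 on the log2 scale, after which all 4 intervals held 1. The share of strong regions with such an interval was not counted under that scaling. BAX and TP53I3 had ratios of 0.864 and 0.870 with intervals that hold 1, while MDM2 and BTG2 had 0.974 (0.863 to 1.10) and 0.976 (0.866 to 1.10). Under median-centred scaling 6 of the 8 stayed below 0, MDM2 and BTG2 moved above it, and the summed log2 ratio was −0.041 in place of −0.14. Of the strong regions, 49.9% were below 0 under that scaling. These 3 comparisons share libraries, so a low or high value of 1 library enters 2 of them.

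**Figure D3:**
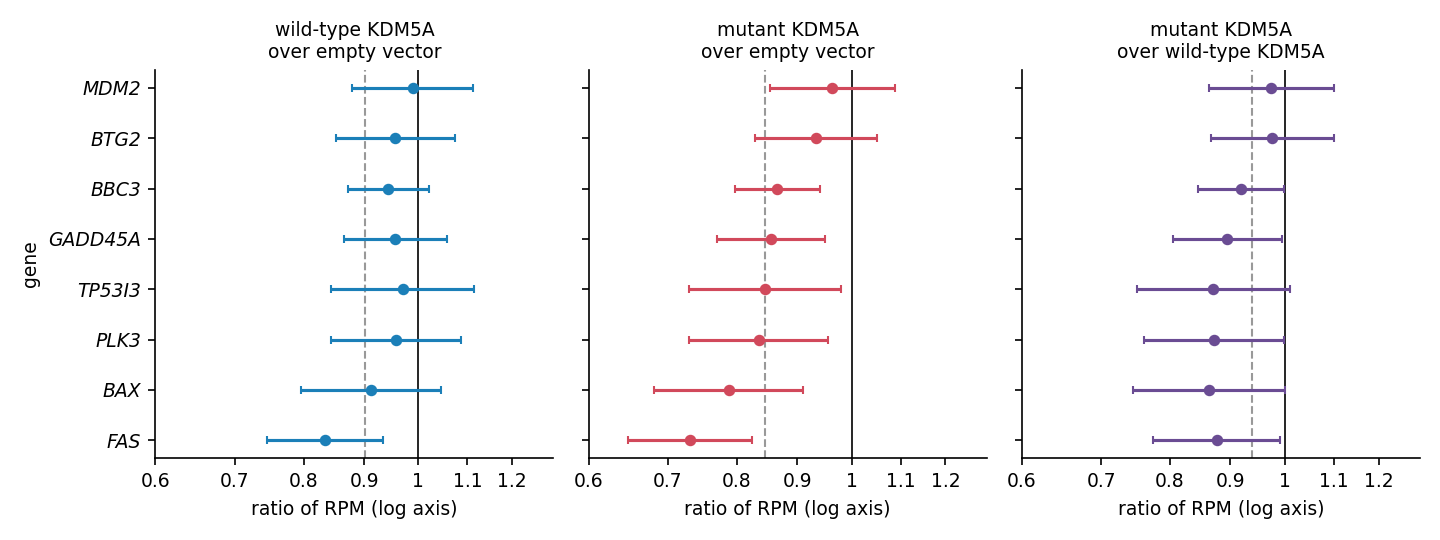
Ratios of RPM at the 8 genes for each pair of libraries, with exact conditional 95% intervals for counting error; the axis is logarithmic, the solid line marks 1 and the dashed line the median ratio of the strong regions. In the authors' scaling all points lie below 1, and MDM2 and FAS mark the ends for mutant KDM5A over empty vector; median-centred scaling moves the dashed line close to 1 and puts 7, 4 and 2 of the 8 points above 1 from left to right.

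Among the 28 pairs of genes, the intervals of the ratio of mutant KDM5A to empty vector did not overlap in 2, MDM2 with FAS and BTG2 with FAS. In the ratios of wild-type KDM5A to empty vector and of mutant to wild-type KDM5A no pair was apart in this way. The order of the genes by ratio is thus not resolved at this depth. FAS at the low end and MDM2 and BTG2 at the high end are the extremes of the 8 ratios, with intervals for counting error alone. How often pairs of other strong regions are apart in this way was not counted. Of the genes with a p53 match in a promoter window, MDM2 and FAS, 1 was at each end.

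**Figure D4:**
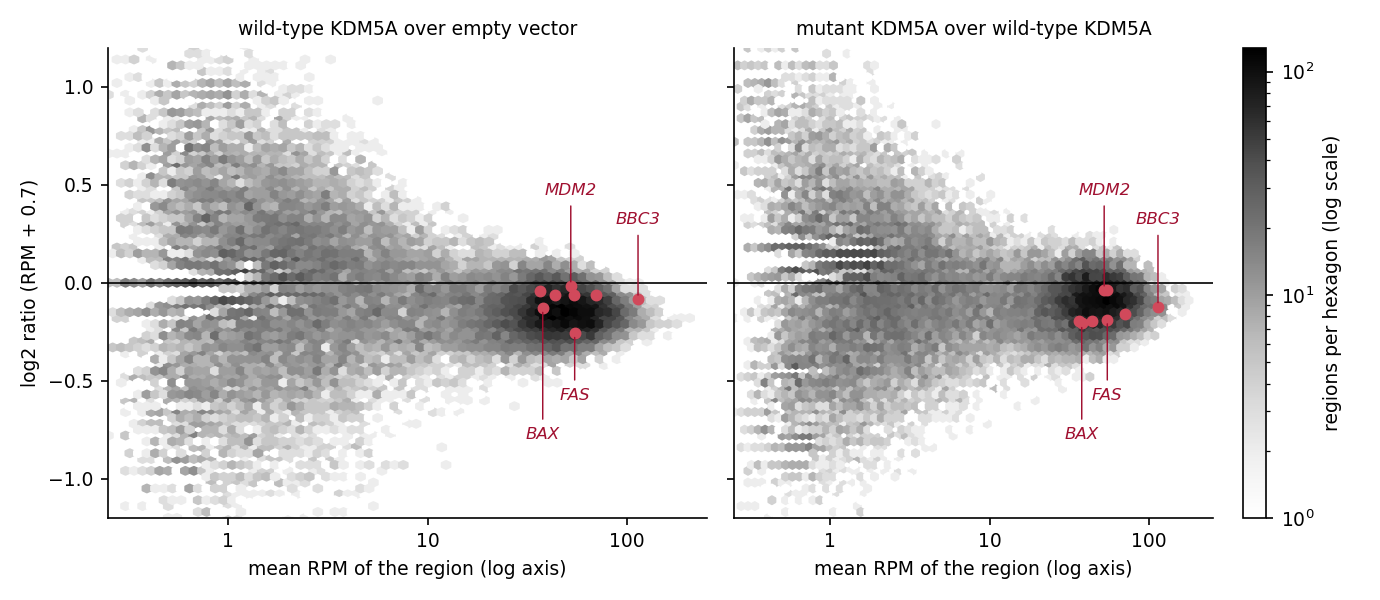
Log2 ratio of RPM plus 0.7 against mean RPM (log axis) for all 30840 regions, as grey hexagons shaded by the number of regions, with the 8 genes as red points; ratios beyond 1.2 on either side are not drawn. The targets lie among the strong regions, mostly in the upper part of their band for wild-type KDM5A over empty vector and in the lower part for mutant over wild-type KDM5A; the position of the band below 0 depends on the scaling and that of the points within it does not.

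Within 25 kb of the 8 starts the table listed 15 other regions, 5 of them around PLK3, and 8 of the 15 had a mean under 10 RPM. With wild-type KDM5A none was 1.5-fold lower or higher than with the empty vector on the log2 scale with the pseudocount of 0.7 RPM, which holds down the ratios of the weakest regions. On the plain scale a region before PLK3 with 0.747 RPM in the control had a ratio of 0.494, with an interval of 0.109 to 1.84. Of those above 10 RPM, 1 passed 1.5-fold between mutant KDM5A and the control: a 2152 bp region at chromosome 19, 47746360 to 47748511, which lies 9.80 kb from the BBC3 region on the side before the gene. It had 20.7 RPM in the control, 14.3 after wild-type KDM5A and 12.5 after the mutant. The ratio to the empty vector was 0.689 (0.558 to 0.85) with wild-type and 0.604 (0.481 to 0.756) with mutant KDM5A, lower than at BBC3 itself. A weak region 11.9 kb beyond the GADD45A region, at chromosome 1, 68165236 to 68167061, had 5.23, 3.87 and 6.97 RPM, and one 14.4 kb from the FAS region, at chromosome 10, 90734537 to 90735476, had 1.21, 1.47 and 2.83 RPM. These weak neighbours of GADD45A and FAS thus did not follow the order seen at the starts, which 40.1% of all regions held. Neighbours above 10 RPM did follow it, such as one near TP53I3 with 72.4, 62.4 and 61.3 RPM. The exception lay 19.5 kb from the BAX region and had 14.7, 11.9 and 15.8 RPM.

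The rest of the pathway was read from 23 further genes, located in the same way by rounded starts. Each had 1 region over its start, and none passed 1.5-fold in any comparison, as is usual for strong regions. With wild-type KDM5A all 23 were below the empty vector in the authors' scaling, as were 66.7% of all regions and 91.4% of the strong regions. Under median-centred scaling 19 of the 23 were, beside 45.3% of all and 52.7% of strong regions. The median change was −12.4%, and intervals lay below 1 at 15 of 23, beside the 20.1% of all and 40.9% of strong regions given above. With mutant KDM5A all 23 were below the empty vector in the authors' scaling, as were 70.5% of all and 98% of strong regions. Under median-centred scaling 14 of the 23 were, beside 44% of all and 52.4% of strong regions. The median was −16.1%, and intervals lay below 1 at 19 of 23, beside 31.7% of all and 69% of strong regions. Between the forms the median was −1.09%, and 15 of 23 were lower with the mutant in the authors' scaling and 6 under median-centred scaling. All regions had 63.7% lower with the mutant and strong regions 79.6%. The 15 of 23, or 65.2%, is thus near the share over all regions and below that over strong regions. Under median-centred scaling the shares over all and strong regions were 48.2% and 49.9%, and that of the 23 genes was 26.1%. These differences in share were not tested. Median-centred scaling moved the 3 median log2 ratios from −0.19 to −0.048, from −0.25 to −0.018 and from −0.016 to 0.078.

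By role, the 5 further regulators of p53 all had a ratio of mutant to wild-type KDM5A above 1, in the authors' and in median-centred scaling, with intervals that hold 1 at all 5. In the authors' scaling 2216 of 10887 strong regions and 11202 of all 30840 regions had a higher value with the mutant. Under median-centred scaling the counts were 5452 and 15982. MDM2, a regulator of p53 as well, was counted with the targets. Its ratio was 0.974 in the authors' scaling and above 1 under median-centred scaling. The median change between the forms at these 5 was 7.23%, all 5 were below the empty vector with the mutant in the authors' scaling and above it under median-centred scaling, and no difference between the roles was tested. Of the strong regions, 98% were below the empty vector with the mutant in the first scaling and 52.4% in the second. MDM4, the MDM2 relative that holds p53 in check, had 53.1 RPM in the control, 45.6 with wild-type and 50.9 with mutant KDM5A (mutant over wild-type 1.12, 0.983 to 1.27). The damage kinase gene ATM had 67.2, 59.4 and 64.3 RPM, and CHEK2, a kinase downstream of it, 51.6, 45.8 and 49.2 RPM. MDM2, equal to MDM4 at 53.1 RPM in the control, was at 52.5 RPM with wild-type KDM5A, and the intervals of their ratios overlap.

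Of the 8 cell cycle and growth genes, 7 were lower with mutant than with wild-type KDM5A in the authors' scaling and 2 under median-centred scaling, with a median change of −2.77% in the first. That 7 of 8 is to be read against the 79.6% of strong regions, and the 2 of 8 against 49.9% under median-centred scaling. CDKN1A, the p21 inhibitor of cyclin-dependent kinases and a main effector of p53 arrest, had 82.05, 66.9 and 64.8 RPM. Its ratios to the empty vector were 0.815 (0.738 to 0.901) and 0.790 (0.712 to 0.875), with intervals that overlap those of FAS. ZMAT3, an RNA-binding p53 target, had 42.4, 37.5 and 34.2 RPM, and PHLDA3, an inhibitor of AKT, 65.7, 60.4 and 52.1 RPM. PHLDA3 had a ratio of mutant to wild-type of 0.862 (0.766 to 0.969).

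Of the 5 further apoptosis genes, 4 were lower with mutant than with wild-type KDM5A in the authors' scaling, about the share of strong regions. Under median-centred scaling 1 of the 5 was, beside 49.9% of strong regions. The median change was −0.302%. PMAIP1, which encodes the BH3-only protein NOXA, had 72.3, 58.7 and 58.5 RPM, so that its whole difference lay between the empty vector and wild-type KDM5A. Its ratio of wild-type to empty vector was 0.811 (0.729 to 0.902), where that of BBC3, the other BH3-only gene, was 0.943 (0.872 to 1.02). Of the 5 repair and metabolism genes, DDB2, a damage sensor of nucleotide excision repair, had 51.4, 37.9 and 41.8 RPM, the lowest ratio of wild-type to empty vector of all 31 genes at 0.736 (0.646 to 0.838). XPC, its partner in damage recognition, had 48.6, 46.8 and 40.4 RPM. FDXR, a mitochondrial ferredoxin reductase, had 79.3, 74.1 and 68.7 RPM.

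**Figure D5:**
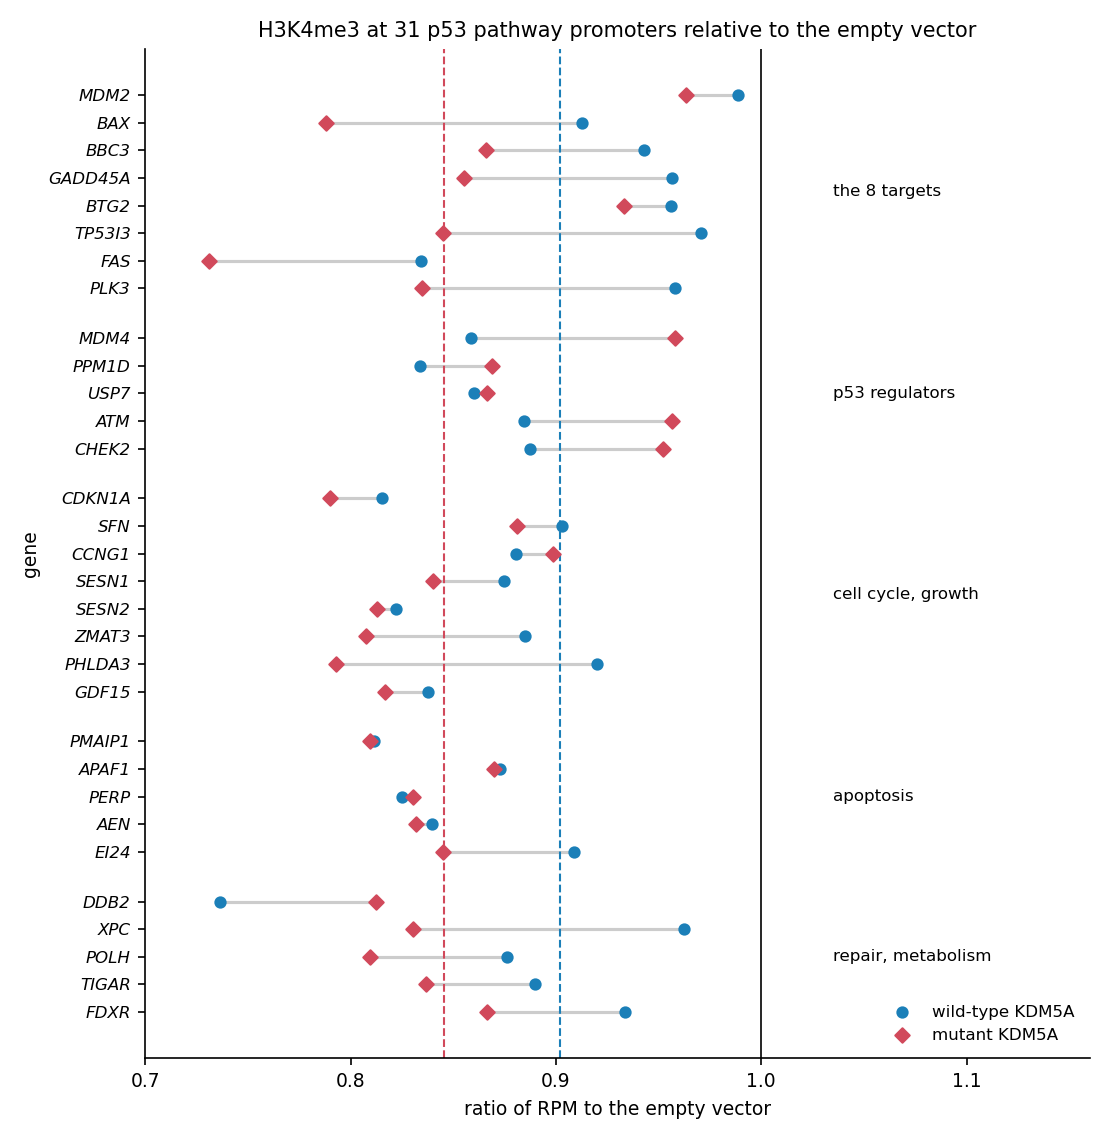
Ratio of RPM to the empty vector with wild-type KDM5A (circles) and mutant KDM5A (diamonds) at 31 p53 pathway genes by role; both share the 1 empty vector library, and dashed lines give the medians of the strong regions in the same colours. In the authors' scaling all points lie left of 1. The diamond lies left of the circle at all 8 targets and at 0 of the 5 regulators. It also does at 7 of 8 cell cycle and growth genes, 4 of 5 apoptosis genes and 4 of 5 repair and metabolism genes. Of the strong regions, 79.6% were lower with mutant than with wild-type KDM5A. Median-centred scaling turns this at MDM2 and BTG2 among the targets and leaves it at 6 of the 23 other genes.

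The 3 libraries held 10713020, 10852412 and 9906507 reads, and the listed regions held 67.0%, 60.7% and 56.9% of them with empty vector, wild-type and mutant KDM5A. That share moves with the groups in the same order as the RPM of the 8 targets, and its part in their differences was not tested. Since RPM sets the libraries to 1 total, a general loss of the mark and a less efficient immunoprecipitation cannot be told apart.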

How the data were processed

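H3K4me3 ChIP-seq was done in 3 transfections of KDM5A-/- HCT116 cells, with 1 library each; the 3 input libraries and the pooled IgG library were not analysed here. The authors deposited 1 table of hg19 regions with RPM values per library. Per the submitters' processing notes, deepTools 3.5.6, HOMER, MACS, MACS2 and Bowtie2 2.5.4 were used. Their roles, and the steps of peak calling, duplicate removal and read counting, were not given in the labels or file headers. One column header says H3K4me4 and was taken to mean H3K4me3. In each library the RPM values were multiples of 1 step (100% within 0.02 reads), which gave back whole reads; no count model was fitted, for want of replicates.

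Region starts were counted from 1. Log2 ratios used RPM plus 0.7. Ratios are plain RPM ratios with exact conditional (Clopper-Pearson) 95% intervals, and single values have exact Poisson ones; the reads are not independent molecules. A count of 0 reads allows 3 reads, but no target region was at 0. The procedure was tested on simulated data. All 8 targets were named, and of 23 further genes the 3 highest and 3 lowest ratios per comparison, with any past 1.5-fold; 1 more gene of the list is not reported here. The starts of those genes are approximate and were not taken from an annotation of the build. The rule for the 8 targets used no measured value, but the genes, lists and settings were chosen with earlier results of these data known. Alternatives were pseudocounts, 2 scalings, a 2-fold threshold, windows, summed regions and a filter on low values. Software was scipy 1.17.1, pandas 2.3.3, numpy 2.4.6 and matplotlib 3.10.9 under Python 3.11.15.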

Additional observations from a re-analysis of the deposited data

How the results depend on the processing

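No paired analysis was possible because each group had 1 library. Summing the regions of a window or using windows of 1 kb changed no value of the targets, and their count past 1.5-fold was 0 under every alternative run. With a median ratio of 1, the summed log2 ratio of the targets was 0.053, 0.012 and −0.041 for wild-type KDM5A over empty vector, mutant over empty vector and mutant over wild-type KDM5A, and with equal sums over regions it was 0.052, 0.0075 and −0.044. Both scalings turned the first 2 of these from negative to positive. The median for mutant over empty vector became 0.0051 and 0.0011, that of BBC3 alone 0.032 and 0.028 and that of GADD45A 0.014 and 0.010. Of 144 values of single targets under alternatives, 125 stayed within the counting interval of the reported value. The sign turned in 26 of the 144, all under the 2 scalings, and in 4 of these the interval of the reported value had lain on 1 side of 0.

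The numbers of all regions past 1.5-fold, lower and higher, were 2015 and 1922 for wild-type KDM5A over empty vector, 2512 and 2040 for mutant over empty vector, and 1682 and 1601 for mutant over wild-type KDM5A. In the same order, a pseudocount of 0.07 RPM gave 3506 and 3552, 3998 and 3581, and 3355 and 3006. A pseudocount of 3.5 RPM gave 186 and 42, 298 and 36, and 15 and 2. A 2-fold threshold gave 398 and 322, 549 and 363, and 200 and 269. A filter that kept regions with mean RPM no lower than the median, fewer by construction, gave 171 and 55, 364 and 53, and 91 and 21. For mutant over empty vector, a median ratio of 1 gave 1548 and 3409, and equal sums 1553 and 3354. By construction, a higher threshold or a larger pseudocount can only lower these counts, and a smaller pseudocount can only raise them. Both scalings multiplied all values of 1 library of a comparison by the same factor, so that no ratio moved down. Depth limits single targets to differences of roughly their intervals, and these leave out any spread between replicates.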
